A study of Mus musculus with 81 samples.

Results

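CA3 pyramidal neurons (CA3 PNs) of trisomic Ts65Dn mice (Ts) were compared with CA3 PNs of disomic mice of the same cross (2N), all born to dams on the normal choline diet (ChN). The comparison used 12 of the 81 libraries of the series, 6 Ts and 6 2N, each library being the CA3 PNs of 1 male mouse of about 6 months of age. The neurons were identified by Nissl stain in frozen sections of the rostral hippocampus and cut out by laser capture microdissection in groups, so that a library holds the RNA of many CA3 PNs with whatever processes of other cells lay among them. Ts65Dn mice came from Ts65Dn mothers and C57Bl/6J Eicher × C3H/HeSnJ F1 fathers and carry a freely segregating extra chromosome with the end of mouse chromosome 16 (Mmu16), which holds orthologs of human chromosome 21 genes, joined to the start of mouse chromosome 17 (Mmu17), whose genes have no ortholog on human chromosome 21. Dams received a diet with 1.1 g/kg choline chloride from conception to weaning, and all offspring ate that diet afterwards. The other CA3 PN libraries, 7 Ts and 7 2N, were of mice whose dams received 5.0 g/kg (ChP) over the same period, and they are used here as other mice of the same genotypes. The cross gives a mixed background and not an inbred strain, and only males were sampled.

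For mouse 15-145 the labels disagree: they give Ts for its CA3 PNs and 2N for its CA1 PNs and dentate granule cells, and its CA3 PNs were counted here as 2N. Summed over 66 genes of the triplicated Mmu16 segment, that library had 8031 CPM (counts scaled to library size with TMM factors), against 7463 to 7811 in the other 5 2N libraries and 11460 to 11880 in the 6 Ts libraries. Over 25 genes of the triplicated Mmu17 segment it had 1059 CPM, against 1013 to 1121 in the other 2N libraries and 1540 to 1683 in Ts. It was also the deepest library, with a total expected count of 4744036, whereas the other 11 ran from 625249 to 2710441. The main counts are therefore also given without this library and with it counted as Ts.

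CA3 PNs receive mossy fiber input from dentate granule cells and recurrent input from each other, and send their output to CA1. The mossy fiber synapse is rich in vesicular zinc, and recurrent CA3 circuits are known for their part in pattern completion. In a trisomy, each gene on the extra segment is present in an added copy, and the other genes are not. The libraries carried the markers of their label. The 5 CA3 markers (Cpne4, Bok, Grik4, Iyd and Spock1) summed to between 1174 and 1279 CPM in Ts and between 1130 and 1298 CPM in 2N, and the markers of CA1 PNs to at most 45.5 and those of dentate granule cells to at most 74.1 CPM in any of the 12 libraries. In these bulk samples, fewer cells of a type and less RNA per cell cannot be told apart.

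Of 13451 genes tested, 1237 (9.20%) were DEGs at the study's threshold of an unadjusted p under 0.05 by edgeR's quasi-likelihood test, and 89 (0.662%) had a Benjamini-Hochberg adjusted p under 0.05. These 89 are called changed below. They were 38 of the 91 triplicated genes, all higher in Ts where 0.528% of all genes were called higher, and 51 of the 13360 other genes (0.382%), of which 33 were higher and 18 lower. Without the library of 15-145 there were 76 called genes, 70 of them among the 89, and with that library counted as Ts there were 17, all among the 89 and all higher. Of the 38 triplicated genes, 4 lost the call without it and 11 kept it with the library as Ts. Of the 51 other genes, 15 lost the call without it and 6 kept it with the library as Ts, of which Hmgcs1, Msmo1, Ddr2, Nsg2 and Prkacb are described below. With all 26 CA3 PN libraries of both diets in 1 fit, 17 of the 51 kept the call, and of those described below Prkacb, Ctxnd1, Arhgef10l, Rph3a, Slc30a3, St8sia6, Fam163b, Epha7, Stat3, Nhsl2, Fdft1, Msmo1, Pde1a, Camk2g, Dscaml1 and Jun lost it (adjusted p of 0.053 to 0.43). The 18 lower calls were 28 without 15-147, 35 without 16-357, 39 without 17-172, 11 without 16-490, 10 without 17-192, 9 without 17-154 and 5 with both diets in 1 fit.

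The triplicated genes rose as a group by close to the dosage of 3 copies against 2. Of the 91 tested, 87 had a log2 fold change (LFC) above 0, 71 were DEGs and all 71 were higher, and the median fold was 1.48 for Mmu16 and 1.51 for Mmu17, where the median LFC of all genes tested was 0.00. In 39 of the 91 every Ts library lay above every 2N library, which held in this direction for 83 (0.617%) of all genes tested. The lists of triplicated genes are the study's own, which it limited to genes it found expressed in these CA3 PNs, so they are not independent of these libraries. The rise was uniform where the counts were high. Of the 46 triplicated genes at or above the median level of 24.1 CPM, 46 were DEGs, 35 were called and 42 lay between 1.25-fold and 1.75-fold. Of the 45 less abundant genes, 25 were DEGs, 3 were called and 20 lay in that range, around nearly the same median of 1.5-fold.

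Synj1 encodes synaptojanin 1, a lipid phosphatase that strips the coat from endocytosed synaptic vesicles. It had a median of 1643 CPM in Ts (lowest 1488, highest 1780) and of 1002 CPM in 2N (lowest 977, highest 1125), an LFC of 0.69 ± 0.055 (SE, adjusted p = 4.34e-12). Ts and 2N did not overlap, and the library of 15-145, at 990 CPM, lay among the 2N libraries. Itsn1, which encodes the endocytic scaffold intersectin 1, had 434 to 467 CPM in Ts and 267 to 370 CPM in 2N, and Synj2 on Mmu17, the second synaptojanin, had 144 to 173 CPM in Ts and 59.4 to 106 CPM in 2N, again without overlap. Their LFCs were 0.58 ± 0.069 and 0.77 ± 0.10. Ttc3, which encodes a ubiquitin ligase, and Son, which encodes a splicing factor of nuclear speckles, had LFCs of 0.61 ± 0.050 and 0.62 ± 0.060. Ifngr2, a chain of the interferon gamma receptor, stood at 78.7 to 98.3 CPM in Ts and 41.5 to 60.9 CPM in 2N, with an LFC of 0.90 ± 0.11. On Mmu17, Arid1b, a subunit of the BAF chromatin remodelling complex, had 391 to 475 CPM in Ts and 263 to 316 CPM in 2N, and Mpc1, a subunit of the mitochondrial pyruvate carrier, had 23.6 to 39.0 CPM in Ts and 10.5 to 20.2 CPM in 2N. Mpc1 had the largest LFC of the 12 triplicated genes with the smallest p, at 1.06 ± 0.17. All 12 were called in every fit that left out 1 library.

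**Figure D1:**
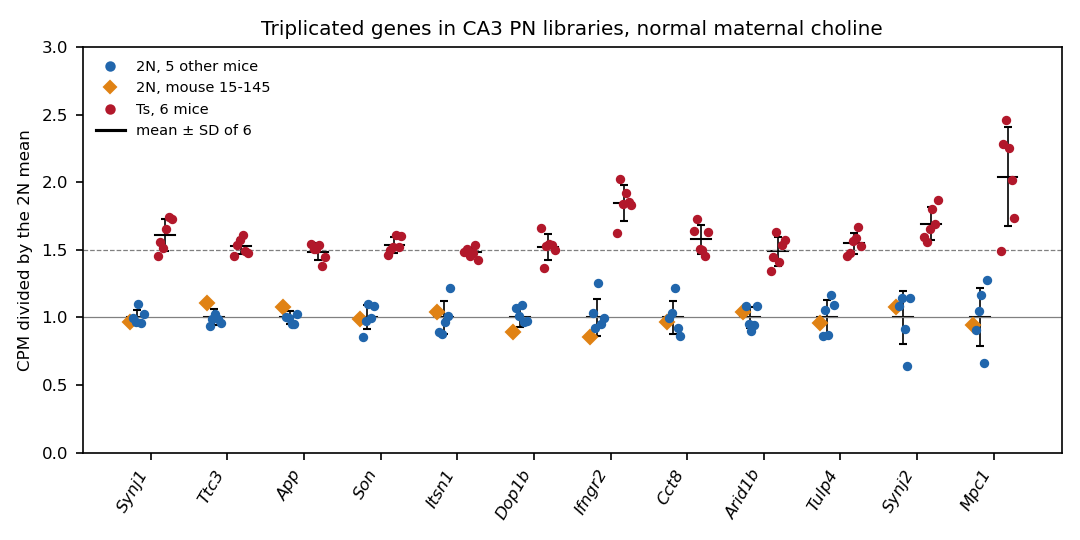
Each library's CPM divided by the mean of the 6 2N libraries (y axis, with lines at 1 and at 1.5) for the 8 Mmu16 and the 4 Mmu17 genes with the smallest p, with the mean and SD of 6 libraries. In each of the 12 genes all Ts libraries lie above all 2N libraries, and the library of mouse 15-145 (diamond) lies with the 2N libraries.

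Gaps without a tested gene lie before the Mmu16 list and after the Mmu17 list, so the end of the rise was not located there. From the start of Mrpl39 to that of A630089N07Rik, the Mmu16 list spans 13.3 Mb, and no other gene was tested after it on the chromosome. The nearest tested gene before it ended 3.08 Mb away. Neither of the nearest genes on that side was a DEG: Ncam2, a neural adhesion molecule, had 67.2 to 82.5 CPM in Ts and 55.5 to 83.9 CPM in 2N (LFC 0.16 ± 0.11, adjusted p = 0.73), and D16Ertd472e, at most 3.52 CPM in any library, had an LFC of -0.25 ± 0.57. On Mmu17 the list runs for 5.58 Mb from Scaf8 to Pde10a, and beyond it Qki, an RNA-binding protein gene, was not a DEG (LFC -0.07 ± 0.098, adjusted p = 0.91). Within the Mmu17 span 4 tested genes were not on the list. Of these the long noncoding RNA Gm64463 was called (LFC 0.67, adjusted p = 0.029) and counts among the 51 genes outside the lists, Gm49797 (LFC 0.73) and Gm56889 (at most 6.60 CPM) were DEGs on the higher side and Tmem181c-ps, a pseudogene, was not (LFC -0.28, adjusted p = 0.95). Gm21926, a processed pseudogene just before Scaf8, had an LFC of 0.63 and was a DEG (adjusted p = 0.30). These unlisted genes were looked at after their values were seen.

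**Figure D2:**
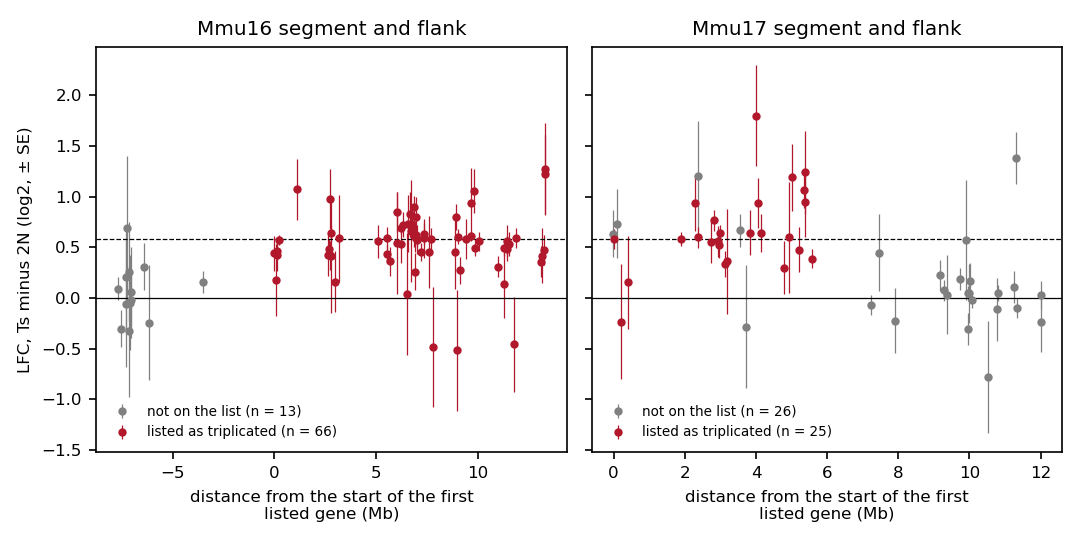
LFC (y axis, Ts minus 2N, with SE; dashed line at 1.5-fold) against distance in Mb from the start of the first listed gene, for listed triplicated genes and for tested genes that are not listed. Listed genes center on the dashed line in both segments, and the genes before the Mmu16 segment and after the Mmu17 segment scatter around 0, apart from Gm34567 at 1.38.

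The 3 listed Mmu16 genes with an LFC below 0 and Tiam2 on Mmu17 were all far from the threshold. Pcp4, a calmodulin-binding peptide that is also a marker of CA2, had 4.62 to 34.4 CPM in Ts and 8.74 to 23.1 CPM in 2N (LFC -0.46 ± 0.47, adjusted p = 0.86). Tiam2 had 1.10 to 17.7 CPM in Ts and 1.02 to 9.78 CPM in 2N (LFC -0.23 ± 0.57). Clic6 and Cbr3 had at most 4.89 CPM in any library, with SEs of 0.59 and 0.60.

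Outside the segments, the genes that rose with the smallest p encode the chains of type IV collagen. Col4a1 (chr8:11248423-11362826, minus strand, GRCm39) and Col4a2 (chr8:11362471-11499287, plus strand) lie head to head, share a promoter region and encode the α1 and α2 chains, which assemble with each other into the collagen network of basement membranes. Col4a1 had a median of 97.6 CPM in Ts (lowest 77.2, highest 113) and of 57.9 CPM in 2N (lowest 43.1, highest 72.7), and Col4a2 had a median of 128 CPM in Ts (lowest 105, highest 156) and of 70.5 CPM in 2N (lowest 51.3, highest 98.2). The groups overlapped in neither gene, and the LFCs were 0.82 ± 0.12 (adjusted p = 2.11e-05) and 0.83 ± 0.12 (adjusted p = 2.87e-05). Without the library of 15-145, which had low values of both, the LFCs were 0.73 and 0.77, with adjusted p of 0.00014 and 0.00012, and with it counted as Ts both calls were lost (LFCs of 0.58 and 0.63, adjusted p of 0.72 and 0.67). Ddr2, which encodes a receptor tyrosine kinase that binds fibrillar collagen, had a median of 10.3 CPM in Ts (lowest 6.02, highest 19.0) and of 2.60 CPM in 2N (lowest 1.31, highest 4.39), an LFC of 1.93 ± 0.34 (adjusted p = 0.00046). Among the 22 tested of 33 genes for basement membrane proteins and collagen processing, Col4a1 and Col4a2 were the only ones called, beside 0.662% of all genes. Of the 22, 5 were DEGs, 3 higher and 2 lower, beside 9.20% of all genes. The others were Col15a1 (LFC 1.70, at most 12.5 CPM), Lama5, a laminin chain (LFC -1.60, at most 6.22 CPM), and P4hb, a subunit of the enzyme that hydroxylates collagen prolines (LFC -0.37, 42.9 to 58.1 CPM in Ts and 46.6 to 84.4 in 2N), none of them called. Without Col4a1 and Col4a2 the list summed to 552 to 637 CPM in Ts and 547 to 621 CPM in 2N, and the groups overlapped. Vascular cells also make these collagens. Of 15 endothelial and mural markers, 12 were tested, Esam was a DEG on the higher side (LFC 1.73 ± 0.48, at most 6.19 CPM) and Pdgfrb on the lower (LFC -1.09 ± 0.40), and their sums ran from 45.3 to 58.8 CPM in Ts and from 45.9 to 76.9 CPM in 2N, with overlap. The part of vascular cells in the collagen values was not tested. No fibroblast marker of 7 had enough counts to be tested.

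Some enzymes of cholesterol synthesis were higher in Ts. The pathway turns acetyl-CoA into mevalonate, squalene and sterols, and neurons make part of their own cholesterol while astrocytes supply the rest. Of the 22 enzymes, all tested, 17 had an LFC above 0. DEGs were 8 of the 22, all 8 higher, beside 4.90% of all genes that were DEGs on the higher side. The 3 called enzymes were all higher, beside 0.528% of all genes that were called higher. The sum over the 22 ran from 919 to 1051 CPM in Ts and from 731 to 884 CPM in 2N, without overlap and with the library of 15-145 at 871. Hmgcs1 (chr13:120151915-120170470, GRCm39), the synthase that starts the mevalonate pathway, had a median of 257 CPM in Ts (lowest 245, highest 273) and of 194 CPM in 2N (lowest 162, highest 201), an LFC of 0.43 ± 0.073 (adjusted p = 0.00023). Its call held without any 1 library and with 15-145 counted as Ts (adjusted p = 0.017). Fdft1, squalene synthase, had 86.6 to 120 CPM in Ts and 54.5 to 90.1 CPM in 2N (LFC 0.47 ± 0.11, adjusted p = 0.022), and Msmo1, which demethylates sterol precursors, had 58.2 to 89.1 CPM in Ts and 44.6 to 61.3 CPM in 2N (LFC 0.50 ± 0.12, adjusted p = 0.023). In each of these 2 genes 4 of 6 Ts libraries lay above all 2N libraries. Fdft1 was no longer called without 15-147, 16-490, 17-153, 17-157 or 17-21 (adjusted p of 0.0596 to 0.092), nor Msmo1 without 17-153, 17-154, 17-157, 17-172, 17-192 or 17-21 (0.0566 to 0.111). DESeq2 called all 3 enzymes, whereas limma-voom called Hmgcs1 and Fdft1 but not Msmo1. Dhcr7 (LFC 0.54 ± 0.18), Lss (0.51 ± 0.19), Mvd (0.67 ± 0.27) and Fdps (0.30 ± 0.14) were among the other DEGs, with adjusted p between 0.21 and 0.51.

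Among 17 genes for the regulation, uptake and export of cholesterol, edgeR, DESeq2 and limma-voom called 0. Of these genes 4 were DEGs, all higher, beside 4.90% of all genes on that side. They were Srebf2, the transcription factor that drives the synthesis genes (270 to 325 CPM in Ts and 215 to 273 in 2N, LFC 0.24 ± 0.071, adjusted p = 0.15), Npc2, which moves cholesterol out of lysosomes (LFC 0.75), Stard4, a sterol carrier (LFC 0.39), and Insig2, which holds the SREBP complex in the endoplasmic reticulum (LFC 0.32). The sum over the 17 overlapped between the groups, at 1700 to 1773 CPM in Ts and 1621 to 1764 CPM in 2N.

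The promoters of these enzymes share a letter pattern, and the windows of Hmgcs1, Msmo1 and Mvd are printed to show it. The windows are the 250 bases before the RefSeq start on GRCm38.p6, 5′ to 3′ on the gene's strand, at chr13:119690101-119690350 (plus strand), chr8:64733579-64733828 (minus strand) and chr8:122443423-122443672 (minus strand). Capitals mark CCAAT or its reverse complement ATTGG and, in Hmgcs1, CACCCCAC, the core of a sterol regulatory element; the motifs were searched on both strands and do not overlap.
Hmgcs1: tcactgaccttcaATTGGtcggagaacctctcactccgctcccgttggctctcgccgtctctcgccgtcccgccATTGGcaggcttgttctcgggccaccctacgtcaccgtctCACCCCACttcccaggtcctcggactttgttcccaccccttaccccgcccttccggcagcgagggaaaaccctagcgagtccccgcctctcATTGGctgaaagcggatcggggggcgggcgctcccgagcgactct
Msmo1: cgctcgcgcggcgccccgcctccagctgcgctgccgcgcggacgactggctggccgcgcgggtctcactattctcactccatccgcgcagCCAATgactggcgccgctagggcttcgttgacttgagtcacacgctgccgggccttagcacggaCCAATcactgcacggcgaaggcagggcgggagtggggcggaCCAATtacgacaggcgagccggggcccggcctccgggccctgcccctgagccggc
Mvd: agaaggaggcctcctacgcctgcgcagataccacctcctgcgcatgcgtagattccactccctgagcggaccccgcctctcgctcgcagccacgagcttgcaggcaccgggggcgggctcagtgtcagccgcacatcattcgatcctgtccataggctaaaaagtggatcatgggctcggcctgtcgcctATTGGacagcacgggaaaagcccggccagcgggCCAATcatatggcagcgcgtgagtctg
Of the 22 enzymes 17 had a window in the table. CCAAT was found in 16 of these 17 genes (94.1%), against 37.5% of 27025 genes with a window, and it stood in all 5 of the DEGs with a window as well as in 11 of the 12 enzymes that were not DEGs. CACCCCAC was in 2 of the 17, Hmgcs1 and Acat2, and in 2.98% of all genes. A match is a run of letters and was not tested as a binding site.

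**Figure D3:**
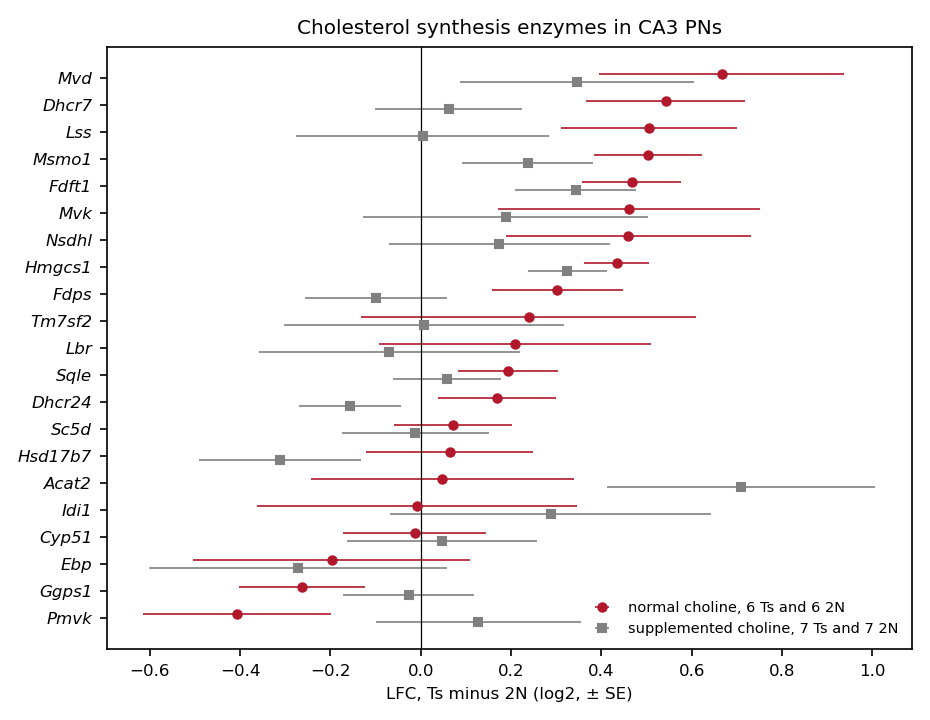
LFC (x axis, Ts minus 2N, with SE) of 21 cholesterol synthesis enzymes in normal-choline mice (circles, 6 Ts and 6 2N) and in choline-supplemented mice (squares, 7 Ts and 7 2N). On the normal diet 16 of the 21 lie above 0. Those above 0 by more than their SE on both diets include Hmgcs1, Fdft1, Msmo1 and Mvd.

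Genes of vesicle release changed in both directions. Of 60 genes of the synaptic vesicle and its release 55 were tested. Among these 4 were DEGs on the higher side and 9 on the lower, beside 4.90% and 4.30% of all genes. Called were 3, beside 0.662% of all genes. Cadps2, which primes dense-core vesicles for release, rose from a median of 9.44 CPM in 2N (lowest 5.59, highest 17.5) to 25.1 CPM in Ts (lowest 15.7, highest 31.7), an LFC of 1.304 ± 0.22 (adjusted p = 0.00029), and 5 of 6 Ts libraries lay above all 2N libraries. Rph3a, the Rab3 effector rabphilin, fell from a median of 868 CPM in 2N (lowest 756, highest 976) to 622 CPM in Ts (lowest 522, highest 756), and the highest Ts library met the lowest 2N library at nearly the same value (LFC -0.50 ± 0.079, adjusted p = 0.00049). Slc30a3 (chr5:31241914-31265581) encodes the transporter that loads zinc into synaptic vesicles. It fell from a median of 54.4 CPM in 2N (lowest 44.0, highest 61.6) to 32.1 CPM in Ts (lowest 29.6, highest 37.5), an LFC of -0.70 ± 0.13 (adjusted p = 0.00067), with no overlap and with 15-145 at 50.5 CPM. The DEGs Unc13c, a priming factor (LFC -1.54, at most 10.8 CPM), Rab3c (LFC -0.23 ± 0.076), Doc2a (LFC -0.73) and the calcium sensor Syt7 (LFC -0.15 ± 0.060) were lower in Ts and were not called. Nsg2, a vesicle protein of neurons that binds AMPA receptors, rose from 207 to 277 CPM in 2N to 298 to 387 CPM in Ts (LFC 0.44 ± 0.077, adjusted p = 0.00045), without overlap. Of 33 genes of endocytosis 6 were DEGs, all higher, beside 4.90% of all genes. The 3 called ones, beside 0.662% of all genes, were the triplicated Synj1, Itsn1 and Synj2. The other 3 were Bin1 (LFC 0.29 ± 0.075, adjusted p = 0.056), which DESeq2 called, Ap2a2, a subunit of the AP-2 adaptor (0.18 ± 0.062), and Snx9 (0.56 ± 0.21). Snx9 is also triplicated and lies on Mmu17.

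Receptor genes were DEGs in both directions. Of 31 ionotropic glutamate receptor genes and their partners, 7 were DEGs, 3 higher and 4 lower, beside 9.20% of all genes, with a list median LFC of 0.00, and edgeR and limma-voom called 0 and DESeq2 1, Frrs1l. Frrs1l, which assists the assembly of AMPA receptors, had 413 to 635 CPM in Ts and 671 to 908 CPM in 2N without overlap (LFC -0.54 ± 0.11, adjusted p = 0.057). Neto1, a partner of kainate receptors, was a DEG on the higher side (LFC 0.20 ± 0.071), and Gria3 and Grin2c on the lower (LFC -0.20 and -0.86). Grm4, a presynaptic metabotropic glutamate receptor, fell from a median of 11.9 CPM in 2N (lowest 4.67, highest 20.4) to 4.02 CPM in Ts (lowest 2.21, highest 11.8), an LFC of -1.54 ± 0.33 (adjusted p = 0.0079). The highest 2N library was that of 15-145, and without it Grm4 was not called (LFC -1.31, adjusted p = 0.075). Of 22 genes of GABA receptors and GABA synthesis 5 were DEGs, 1 higher and 4 lower, beside 9.20% of all genes, and edgeR and limma-voom called 0 and DESeq2 1, Gad2. The lower ones included Gad1, Gad2 and Slc32a1 (LFCs of -0.43, -0.73 and -0.50), which make GABA and load it into vesicles and belong to inhibitory neurons.

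All 12 markers of inhibitory neurons had an LFC below 0 in the CA3 PN libraries. Of these, 7 were DEGs, all lower, beside 4.30% of all genes on that side, and edgeR and limma-voom called 0 and DESeq2 2, Gad2 and Sst. The marker sum ran from 628 to 784 CPM in Ts and from 772 to 1032 CPM in 2N, with 15-145 at 919, and 4 of 6 Ts libraries lay below all 2N libraries. Sst, the somatostatin gene, had a median of 16.8 CPM in Ts (lowest 10.03, highest 23.6) and of 53.9 CPM in 2N (lowest 25.6, highest 119), an LFC of -1.87 ± 0.40 (adjusted p = 0.093), with no overlap. The highest 2N library was that of 15-145, and without it Sst was called (LFC -1.465, adjusted p = 0.0013). Reln, the reelin gene that inhibitory neurons express in the adult hippocampus, was a DEG with an LFC of -1.58 ± 0.52 (4.92 to 22.5 CPM in Ts and 6.65 to 67.3 CPM in 2N). Without Sst the other 11 markers summed to 614 to 766 CPM in Ts and 746 to 977 CPM in 2N. The excitatory markers summed to 6656 to 7204 CPM in Ts and 6624 to 7321 CPM in 2N and overlapped between the groups. The part of the inhibitory markers in the lower genes named here was not tested.

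Markers of some other cell classes were DEGs, beside 9.20% of all genes (4.90% higher and 4.30% lower). Of 9 astrocyte markers Gfap (LFC -0.55 ± 0.21), Gja1 (-0.40 ± 0.16) and Aqp4 (-0.42 ± 0.20) were DEGs, all lower and none called by edgeR, DESeq2 or limma-voom, while the 9 summed to 1838 to 2682 CPM in Ts and 1941 to 2816 CPM in 2N, almost all of it from the other 6. No oligodendrocyte or microglia marker was a DEG. Olig1, a precursor marker that lies in the triplicated Mmu16 segment, was a DEG on the higher side (LFC 0.73 ± 0.28). Of 4 tested dentate markers Maml2 (LFC 0.43) and Lct (-0.50) were DEGs, and of 3 tested CA1 markers Mpped1 (-0.95, at most 10.1 CPM), none of them called by edgeR, DESeq2 or limma-voom. CA2 markers summed to 69.2 to 109 CPM in Ts and 55.9 to 93.7 CPM in 2N, with Amigo2 a DEG (LFC 0.59 ± 0.29, adjusted p = 0.54). Of the CA3 markers themselves, Spock1 was a DEG on the higher side (LFC 0.17 ± 0.062) and Bok on the lower (-0.23 ± 0.11).

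Signalling genes included several that rose. Of 29 tested genes of the cAMP and protein kinase A pathway 5 were DEGs on the higher side and 2 on the lower, beside 4.90% and 4.30% of all genes, and 3 were called, beside 0.662%. Prkacb, a catalytic subunit of protein kinase A, rose from a median of 109 CPM in 2N (lowest 85.3, highest 127) to 160 CPM in Ts (lowest 132, highest 186), an LFC of 0.52 ± 0.095 (adjusted p = 0.00075), with no overlap and with 15-145 the highest 2N library. Its call held with that library counted as Ts (adjusted p = 0.013) and was lost with both diets in 1 fit (adjusted p = 0.10). Pde10a, the triplicated phosphodiesterase at the end of the Mmu17 list, and Pde1a, a calmodulin-dependent phosphodiesterase on chromosome 2, had LFCs of 0.39 ± 0.090 and 0.37 ± 0.088, each with 5 of 6 Ts libraries above all 2N libraries. Both calls rested on many libraries: Pde10a was not called without 15-147, 17-157, 17-172, 17-192 or 17-21 (adjusted p of 0.0508 to 0.126), nor Pde1a without 15-145, 15-147, 16-490, 17-157, 17-192 or 17-21 (0.0544 to 0.126). The adenylyl cyclase genes Adcy1 (LFC -0.75 ± 0.19, adjusted p = 0.15) and Adcy5 (0.44 ± 0.15, adjusted p = 0.25) were DEGs in opposite directions. Neither was called by edgeR or limma-voom, and DESeq2 called Adcy1. Of 44 genes of calcium and calmodulin signalling 9 were DEGs on the higher side and 6 on the lower, beside 4.90% and 4.30% of all genes. Rcan1, the triplicated inhibitor of calcineurin, rose from 49.8 to 60.7 CPM in 2N to 72.6 to 97.3 CPM in Ts (LFC 0.59 ± 0.11, adjusted p = 0.00075). Camk2g, a calmodulin-dependent kinase subunit, rose from 80.9 to 101 CPM in 2N to 105 to 131 CPM in Ts (LFC 0.36 ± 0.090, adjusted p = 0.040), a call that was lost without 15-145, 15-147, 16-357, 17-157, 17-173, 17-192, 17-21 or 17-56 (0.0546 to 0.152). The fit with 1 surrogate variable did not call Camk2g. Cacna1g, a T-type calcium channel, was a DEG at an LFC of -1.07 ± 0.34.

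Among 58 tested genes of axon guidance and the teneurins 10 were DEGs on the higher side and 8 on the lower, beside 4.90% and 4.30% of all genes, and 5 were called, beside 0.662%. Tenm3, a teneurin that matches hippocampal axons with their targets, had a median of 35.5 CPM in Ts (lowest 31.5, highest 49.6) and of 20.5 CPM in 2N (lowest 16.1, highest 24.9), without overlap (LFC 0.96 ± 0.16, adjusted p = 0.00021). Dscam, a triplicated adhesion molecule of the immunoglobulin family, had 92.3 to 140 CPM in Ts and 69.2 to 87.2 CPM in 2N (LFC 0.59 ± 0.099), and Dab1, the adaptor that carries the reelin signal into the cell, had 63.8 to 97.0 CPM in Ts and 45.0 to 59.4 CPM in 2N (LFC 0.56 ± 0.11, adjusted p = 0.0036). Both groups were apart in both genes. Epha7, an ephrin receptor, fell from a median of 495 CPM in 2N (lowest 383, highest 572) to 378 CPM in Ts (lowest 366, highest 422), an LFC of -0.33 ± 0.074 (adjusted p = 0.015), with 3 of 6 Ts libraries below all 2N libraries, and was not called without 17-154, 17-192 or 17-21 (0.0584 to 0.0703). Dscaml1, the paralog of Dscam on chromosome 9, fell where Dscam rose (LFC -0.35 ± 0.086, adjusted p = 0.036), and lost the call without 15-145, 15-147, 16-490, 17-153, 17-154, 17-157, 17-192 or 17-56 (0.0595 to 0.158), and DESeq2 and the fit with 1 surrogate variable did not call it. Igsf21, a synaptic adhesion molecule, rose from a median of 11.5 CPM in 2N (lowest 6.99, highest 23.3) to 26.1 CPM in Ts (lowest 17.7, highest 34.98), an LFC of 1.15 ± 0.21 (adjusted p = 0.00071), with 4 of 6 Ts libraries above all 2N libraries.

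The rest of the genes that passed most clearly outside the segments had varied roles. Arhgef10l (chr4:140240914-140393323), a guanine nucleotide exchange factor, had a median of 3.18 CPM in Ts (lowest 1.47, highest 7.87) and of 12.7 CPM in 2N (lowest 7.68, highest 21.4), an LFC of -1.95 ± 0.34 (adjusted p = 0.00040), and 5 of 6 Ts libraries lay below all 2N libraries. Nap1l5, an imprinted gene of the nucleosome assembly protein family, had a median of 61.0 CPM in Ts (lowest 56.5, highest 82.7) and of 99.2 CPM in 2N (lowest 77.3, highest 109), an LFC of -0.61 ± 0.11 (adjusted p = 0.00046). St8sia6, a sialyltransferase gene, fell to 22.0 to 42.3 CPM in Ts from 37.5 to 83.2 CPM in 2N (LFC -1.002 ± 0.17, adjusted p = 0.00075), and Fam163b fell to 2.80 to 7.87 CPM from 8.13 to 21.7 CPM without overlap (LFC -1.56 ± 0.30, adjusted p = 0.0015). Stat3, a transcription factor of cytokine signalling, fell from 51.3 to 56.3 CPM in 2N to 30.1 to 48.2 CPM in Ts without overlap (LFC -0.55 ± 0.13, adjusted p = 0.018), and lost the call without 16-490, 17-173 or 17-192 (0.0521 to 0.0709). Nhsl2 on chromosome X fell from 78.2 to 121 CPM in 2N to 51.6 to 84.6 CPM in Ts (LFC -0.50 ± 0.12, adjusted p = 0.020), and lost the call without 15-145, 16-490, 17-154, 17-173, 17-192, 17-21 or 17-56 (0.0508 to 0.0973). It was also not called in the fit with 1 surrogate variable. Ctxnd1 rose from 4.19 to 11.9 CPM in 2N to 10.8 to 34.3 CPM in Ts (LFC 1.54 ± 0.29, adjusted p = 0.0029). Of the 51 called genes outside the lists, 23 had groups that did not overlap, and so did 79 (0.591%) of all genes outside the lists, these 23 included. The 51 were called from these same libraries, so this is no separate support for the calls.

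**Figure D4:**
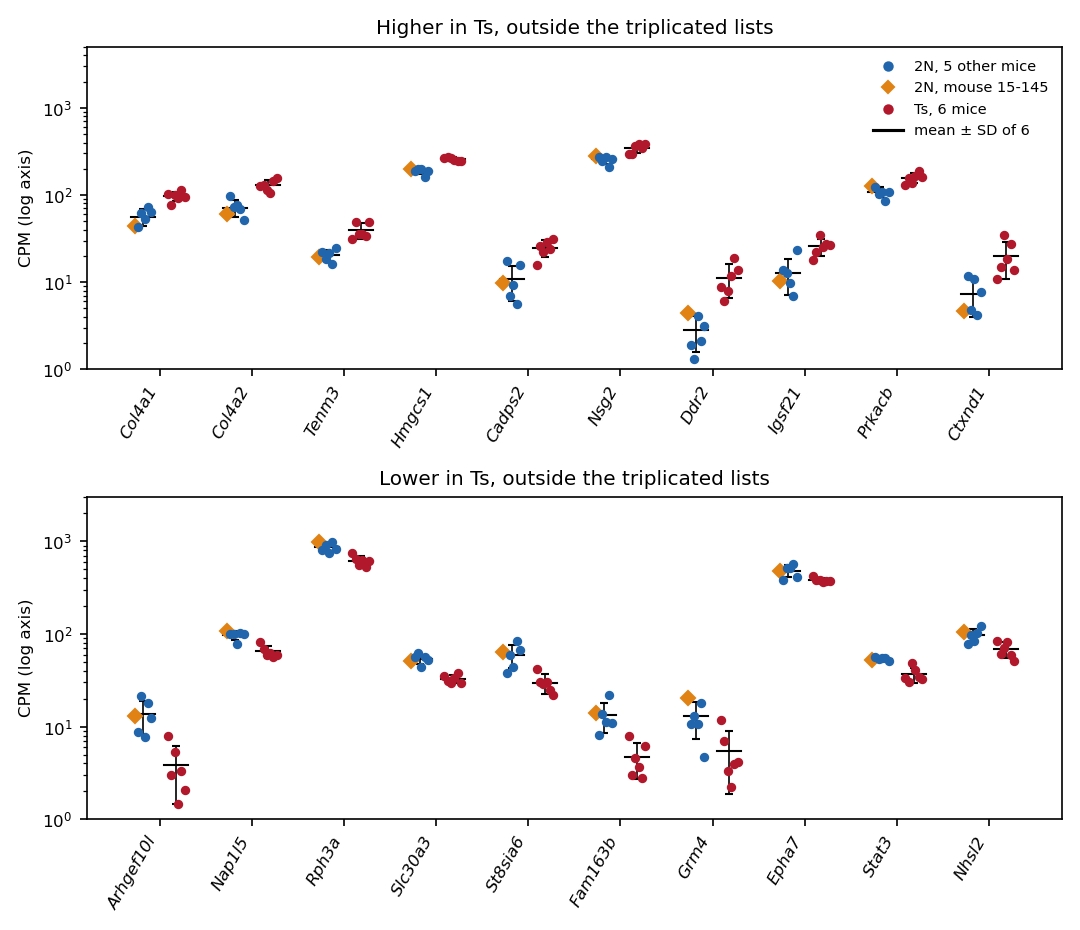
CPM of each library on a log axis for the 10 higher and the 10 lower genes outside the triplicated lists with the smallest p (predicted genes and clustered protocadherins left out), with the mean and SD of 6 libraries. The groups are apart in Col4a1, Col4a2, Tenm3, Hmgcs1, Nsg2, Ddr2 and Prkacb, and in Rph3a, Slc30a3, Fam163b and Stat3, and the library of mouse 15-145 (diamond) lies on the 2N side of the Ts libraries in these.

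Other lists held few called genes. Of 23 immediate early genes Jun was called, beside 0.662% of all genes. It had 34.4 to 89.3 CPM in Ts and 15.5 to 39.9 CPM in 2N (LFC 1.11 ± 0.22, adjusted p = 0.026), and lost the call without 15-145, 15-147, 17-153, 17-154, 17-173 or 17-21 (0.0508 to 0.129). Egr4 was the only other DEG of that list (LFC -0.38), where 9.20% of all genes were DEGs. Of 22 clock genes 7 were DEGs, beside 9.20% of all genes, 4 higher, among them Rora (LFC 0.55 ± 0.16), and 3 lower, among them Nr1d2 (-0.62 ± 0.19) and the output gene Dbp (-0.78 ± 0.27), and edgeR, DESeq2 and limma-voom called 0. Of 16 genes of the cilium and the Evc complex only Evc was a DEG, beside 9.20% of all genes. It had 7.26 to 27.6 CPM in Ts and 2.05 to 15.5 CPM in 2N (LFC 1.36 ± 0.33, adjusted p = 0.057), and DESeq2 called it.

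Of the respiratory chain genes, only 2 triplicated ones were called. Of 13 mitochondrially encoded subunits 7 were tested, and all 7 had an LFC below 0, with a median of -0.19. Of the 7, mt-Co1, mt-Nd1 and mt-Nd4 were DEGs (LFCs of -0.17, -0.18 and -0.25), beside 4.30% of all genes on the lower side, and edgeR, DESeq2 and limma-voom called 0. Their sum ran from 7142 to 7769 CPM in Ts and from 6515 to 10590 CPM in 2N, with the highest value in 15-145 and the lowest in 2N mouse 17-56, and without 15-145 the LFCs of mt-Nd1 and mt-Nd4 were -0.14 and -0.17. Of 78 nuclear subunits 56 had an LFC below 0, and the 2 called ones, Atp5po and Atp5pf of the ATP synthase stalk, lie in the triplicated Mmu16 segment and rose (LFCs of 0.45 ± 0.086 and 0.46 ± 0.089). Of the other 76, 1 was a DEG on the higher side and 5 on the lower, beside 4.90% and 4.30% of all genes, with a median LFC of -0.09, and edgeR, DESeq2 and limma-voom called 0.

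In choline-supplemented mice, which share no library with the comparison above, the triplicated genes called on the normal diet rose again, with a median LFC of 0.57 there and 0.59 here. In those 14 libraries 701 of 14041 genes (4.99%; 2.67% higher and 2.32% lower) were DEGs and 35 (0.249%) were called, and 37 of the 38 triplicated genes were DEGs in the same direction and 30 were called. Of the 51 genes outside the lists, among them Gm64463 within the Mmu17 span, 40 had an LFC of the same sign there and 12 (23.5%) were DEGs in the same direction, 0 in the opposite direction, and edgeR called 0 and DESeq2 1, Exph5. Gm64463 was itself among the 12. These 12 include Col4a1 (68.5 to 99.2 CPM in Ts and 33.6 to 69.2 CPM in 2N, LFC 0.53 ± 0.14, adjusted p = 0.15), Col4a2 (LFC 0.42 ± 0.11), Hmgcs1 (199 to 279 CPM and 165 to 244 CPM, LFC 0.32 ± 0.088), Fdft1 (0.34 ± 0.13) and Igsf21 (0.65 ± 0.25). On the lower side they include Slc30a3 (17.9 to 48.4 CPM in Ts and 28.5 to 73.4 CPM in 2N, LFC -0.65 ± 0.23, adjusted p = 0.70), Nap1l5 (-0.28 ± 0.13) and Grm4 (-0.67 ± 0.29). Tenm3 (0.23 ± 0.16), Nsg2 (0.00 ± 0.081), Cadps2 (0.35 ± 0.23), Arhgef10l (-0.41 ± 0.53), Fam163b (0.15 ± 0.69), Stat3 (0.01 ± 0.14) and Dab1 (0.00 ± 0.13) were not DEGs in those mice. The LFC was smaller in size there in 50 of the 51 genes and in 22 of the 38 triplicated genes; the genes had been chosen by their values on the normal diet. Over the 22 cholesterol enzymes 3 were DEGs there, all higher, with a median LFC of 0.06, against 0.22 on the normal diet.

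The difference in LFC between the diets was tested in 1 model of the 26 CA3 PN libraries. By edgeR 814 of 16721 genes (4.87%) had an unadjusted p under 0.05 and 0 had an adjusted p under 0.05, and DESeq2 also gave 0. Nsg2 had a difference of -0.43 (supplemented minus normal), Dab1 of -0.56, Tenm3 of -0.72 and Stat3 of 0.57, each with an unadjusted p under 0.05 and an adjusted p of 0.98. For Hmgcs1 (-0.10), Slc30a3 (0.07) and Col4a1 (-0.27) it had an unadjusted p above 0.05. All of these genes were chosen by their values on the normal diet, which enter the difference, so a small unadjusted p is no separate support.

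**Figure D5:**
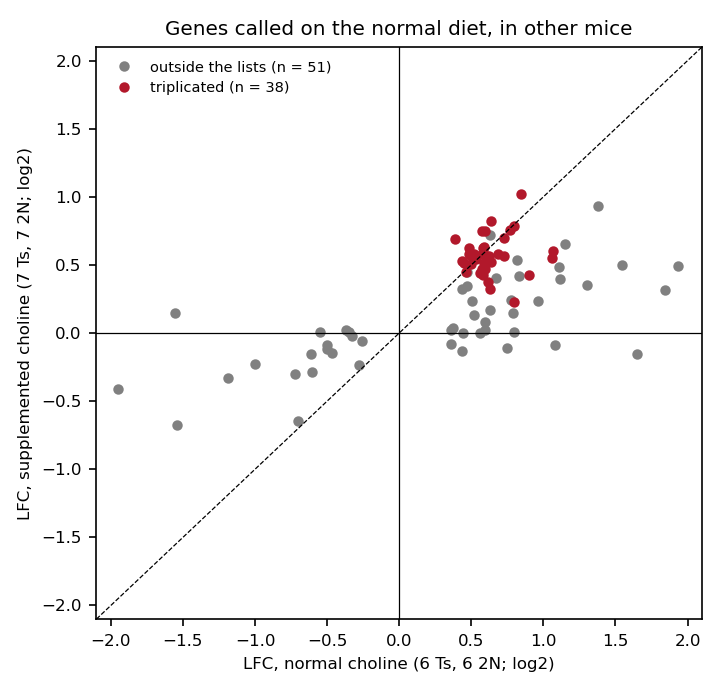
LFC on the normal diet (x axis) against LFC in choline-supplemented mice (y axis) for the 89 genes called on the normal diet, which chose them; the dashed line marks equal values. The 38 triplicated genes lie near the line, whereas 50 of the 51 others lie nearer to 0 on the y axis than on the x axis.

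The same mice gave libraries of dentate granule cells, so each comparison below shares its mice with the CA3 PNs. In dentate granule cells 1143 of 13442 genes (8.50%) were DEGs and 79 (0.588%) were called. Of the genes that fell or rose in CA3 PNs, Col4a1 (LFC 0.22), Col4a2 (0.08), Tenm3 (-0.02), Slc30a3 (0.00), Hmgcs1 (0.24), Prkacb (-0.03) and Dab1 (0.00) were not DEGs there, with adjusted p of 0.79 or more. Frrs1l, by contrast, had an LFC of -0.57 in the dentate (adjusted p = 0.37) and Epha7 one of -0.19 (adjusted p = 0.30), and both were DEGs. The difference in LFC between CA3 PNs and dentate granule cells had an unadjusted p under 0.05 in 924 of 17853 genes (5.18%), and edgeR called 1 (0.00560%), Arhgef10l. The fits of this difference, with and without a block, also held the CA1 PN libraries, including that of 17-21 described below. Their SEs therefore rest in part on those libraries. With the mouse as a replicate block, since the labels tie both libraries to 1 mouse, 4 were called: Arhgef10l, Fam163b, Crtac1 and Cadm4. Without the block, the difference was 0.73 for Col4a2, 0.54 for Dab1 and 0.53 for Prkacb, with unadjusted p under 0.05, and 0.57 for Col4a1 and -0.72 for Slc30a3, with unadjusted p over 0.05, each with an adjusted p of 0.41 or more. These genes were chosen by their CA3 PN values, which enter the difference, so a small unadjusted p is no separate support. Against CA1 PNs 754 genes (4.22%) had an unadjusted p under 0.05 for the difference and edgeR called 0. In 1 of the 11 CA1 PN libraries, that of 2N mouse 17-21, the CA1 markers summed to 75.8 CPM, against 559 to 1942 CPM in the other 10, so single genes are not compared with CA1 PNs here.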

How the data were processed

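RNA of laser-captured CA3 PNs was sequenced with a stranded total RNA kit. The authors deposited the RSEM expected count of each gene without normalization, after trimming, alignment to GRCm39 with STAR and quantification with RSEM (submitters' notes: FastQC 0.11.9, Trimmomatic 0.39, Picard 2.26.2). A read that maps to more than 1 gene is shared out by RSEM, so counts of paralogs and pseudogenes are less certain. The matrices and the files per library agreed in 81 of 81 columns.

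Expected counts were rounded to whole numbers (2.71% of those above 0 were not whole). Genes over 0.1 CPM in at least 10 libraries were kept, as in the study, and tested with edgeR 4.0.16 (R 4.3.3; TMM, robust glmQLFit, glmQLFTest, two-sided). Unlike the limma-based model of the study, the fits held no sequencing-quality covariates. All p-values, standard errors and Benjamini-Hochberg adjusted p-values come from these fits over all genes tested. In the comparisons of genotypes and diets they measure the spread between mice. The differences between populations without a block treat libraries of the same mouse as separate, so there they measure the spread between libraries. Alternatives were DESeq2 1.42.0, limma-voom 3.58.1, 1 surrogate variable from sva 3.50.0, library totals, filterByExpr (minimum count 10), no filter beyond 1 count in any library, both diets in 1 fit, the mice numbered 17, leaving out each library, and library 15-145 as Ts. Differences between populations were also fitted with the mouse, which the labels name, as a block. Total expected counts ran from 999952 to 2710441 in Ts and from 625249 to 4744036 in 2N, and mitochondrial genes held 6.19 to 6.85% and 5.85 to 8.14% of them. The test was tried on simulated counts of 13451 genes, of which 200 were changed. It called 24% of the genes changed by an LFC of -0.58 and 48% of those changed by 0.58. At LFCs of -1 and 1 it called 56% and 60%, and 7 unchanged genes were called.

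The groups, gene lists and tests were chosen with earlier results of these data known. Named were the 8 Mmu16 and 4 Mmu17 genes with the smallest p, the 10 higher and 10 lower called genes outside the lists with the smallest p (predicted genes and protocadherins left out), the called members and up to 4 further DEGs of each list, the flanking genes, and genes called in a difference; others named were chosen after their values were seen. Gene positions are from GENCODE on GRCm39 and promoter windows from RefSeq on GRCm38.p6. The promoters were scanned on both strands. Some genes are not reported here.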

Additional observations from a re-analysis of the deposited data

Results flagged for a closer look

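In 10 of 236 groups of 6 values of named genes and library measures (4.24%), 1 library lay far from the other 5, and chance alone flags about 1 in 20 groups. Of the genes called in the comparison, Hmgcs1 had 162 CPM in 2N mouse 17-21 against 189 to 201 in the other 2N mice, Nap1l5 had 77.3 CPM in 2N mouse 17-172 against 98.8 to 109, and Epha7 had 422 CPM in Ts mouse 16-357 against 366 to 386. The same Ts mouse stood apart in Lss (33.5 CPM, others 19.3 to 22.5), Camkv (387 CPM, others 540 to 591), Ncor1 (423 CPM, others 475 to 496) and Spock1 (579 CPM, others 653 to 679). Ts mouse 17-157 stood apart in Adcy5 (58.5 CPM, others 36.9 to 44.7) and Reln (22.5 CPM, others 4.92 to 10.3). D16Ertd472e, which lies before the Mmu16 segment, had 3.52 CPM in the library of 15-145 against 0.437 to 1.55 CPM in the other 2N mice.

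The LFC of Arhgef10l differed between CA3 PNs and dentate granule cells of the same mice by -2.59 ± 0.44 (SE, edgeR, adjusted p = 0.0022). The difference was -2.54 without mouse 15-145 (adjusted p = 0.013), -2.53 with the mouse as a block (adjusted p = 0.0010) and -1.88 with the CA3 PNs of 15-145 counted as Ts (adjusted p = 0.78). It was the only gene called in the tests of a difference between diets or populations without a block.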

How the results depend on the processing

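The count of 89 called genes stayed between 79 and 110 with DESeq2, limma-voom, library totals, filterByExpr, 1 surrogate variable and the mice numbered 17. It was 55 with both diets in 1 fit, 187 without a filter (of 23675 genes) and 17 with library 15-145 as Ts. That label also moved the Mmu16 count from 30 to 10, the Mmu17 count from 8 to 1 and the CA3 minus dentate count from 1 to 0. Leaving out 1 library gave 60 (without 17-192) to 117 (without 16-357) called genes, 25 to 28 on Mmu16, 6 to 9 on Mmu17 and 33 to 40 in the supplemented mice. No paired analysis was possible for the comparison of genotypes because Ts and 2N are different mice. With the mouse as a replicate block the CA3 minus dentate count was 4 and the CA3 minus CA1 count 0. Of 45 called named genes 33 stayed called without any 1 library. The LFC of D16Ertd472e (-0.25) was 0.764 with 15-145 as Ts and 0.433 in the mice numbered 17, and leaving out a library gave -0.604 to 0.386, the latter without 15-145. That of Qki ran from -0.132 to 0.00209, the latter without 17-21. Counts were lowest in 2N mouse 17-56, and differences of genes under about 10 CPM carry large SEs.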

Other observations

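Some called genes outside the segments lie beside each other. On chromosome 4, Igsf21 (chr4:139754157-139974226, GRCm39, LFC 1.15) and Arhgef10l (chr4:140240914-140393323, LFC -1.95) are 0.267 Mb apart with no tested gene between them and moved in opposite directions. Nbl1, which encodes a secreted antagonist of bone morphogenetic proteins, lies 0.934 Mb before Igsf21 and also rose (53.5 to 98.7 CPM in Ts and 37.6 to 65.5 CPM in 2N, LFC 0.60 ± 0.14, adjusted p = 0.022), and none of the 10 tested genes between them was a DEG. On chromosome 17, beyond the triplicated segment, the long noncoding RNA Gm34567 (chr17:14469995-14521226) had at least 14.0 CPM in Ts and at most 13.3 CPM in 2N (LFC 1.38 ± 0.26, adjusted p = 0.00083). In the choline-supplemented mice its LFC was 0.94 ± 0.45 (adjusted p = 0.999). These genes were picked after their values were seen.

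In the supplemented mice, 4 genes outside the segments were called that were not called on the normal diet. Sparc, a secreted matrix protein, had 21.1 to 47.3 CPM in Ts and 10.5 to 23.9 CPM in 2N there (LFC 0.88 ± 0.20, adjusted p = 0.023), and 14.0 to 36.8 CPM and 14.0 to 26.2 CPM on the normal diet (LFC 0.26 ± 0.20, adjusted p = 0.76). Unc5c, a netrin receptor, had an LFC of -0.35 ± 0.075 there (adjusted p = 0.014) and of -0.15 ± 0.071 on the normal diet (adjusted p = 0.52). Rassf3 had an LFC of 0.90 in the supplemented mice and 0.33 on the normal diet, and Pakap, 1 of 3 gene models of that name between which reads may be divided, had -0.76 and -0.62. The difference between the diets was not called for any of the 4.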
